A study of Homo sapiens with 12 samples.

Results

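Glycolysis and the pentose phosphate pathway were followed through 32 genes in KP4 cells, a human pancreatic ductal cell carcinoma line. The genes were taken by name from a table of 36601 genes, each was found in 1 row, and all 32 passed the only other criterion, a mean of at least 10 normalized counts over the 12 libraries, which 15376 genes of the table passed. They are the hexokinases HK1 and HK2, the isomerase GPI, the phosphofructokinase subunits PFKL, PFKM and PFKP, the bifunctional regulators PFKFB2, PFKFB3 and PFKFB4, the aldolases ALDOA and ALDOC, TPI1, GAPDH, PGK1, PGAM1, BPGM, the enolases ENO1 and ENO2, PKM, the lactate dehydrogenases LDHA and LDHB, the lactate carriers SLC16A1 and SLC16A3, the pentose phosphate enzymes PGLS, PGD, RPE, RPIA, TKT and TALDO1, the regulator TIGAR and the phosphoglucomutases PGM1 and PGM2. The cells carried no engineered change and had for 24 h received the vehicle (DMSO), 10 mM metformin (Met), 5 nM FK866 (FK), or 10 mM metformin together with 5 nM FK866 (Met+FK), with 3 libraries per treatment. The cells of 1 line grown in culture stand for that line alone. Total RNA was depleted of ribosomal RNA before sequencing. The labels number the libraries of a treatment from 1 to 3 without saying that they came from separate cultures, so p-values measure the spread between these libraries only.

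Glycolysis breaks glucose down to pyruvate, with a small gain of ATP and the transfer of electrons to NAD+, which GAPDH reduces and lactate dehydrogenase oxidises again. The pentose phosphate pathway branches off after the hexokinase step and yields NADPH and ribose phosphate. Metformin blocks mitochondrial complex I, and FK866 inhibits NAMPT, the salvage enzyme that makes NAD from nicotinamide, so that either drug bears on the NAD that glycolysis needs. Many steps have several isoenzymes with different tissue distribution and regulation, and several glycolytic genes are known targets of the hypoxia-inducible factor and of MYC, whose binding sites share the letters ACGTG or CACGTG.

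Each library held between 30667735 and 41052203 read pairs. Of 8 epithelial and ductal markers, 7 had a mean of at least 10 normalized counts, with KRT8 at 2728, KRT18 at 13174 and SOX9 at 4319.5, while EPCAM (mean 8.93), KRT19 (33.7) and CDH1 (47.4) were low and the mesenchymal marker VIM was high. The acinar and endocrine markers were at or near 0 in every library, as were the fibroblast genes DCN and LUM. Summed over 3 genes, leukocyte markers stood at 254, 169, 254 and 139 normalized counts in DMSO, Met, FK and Met+FK, nearly all of it PTPRC, with CD3E near 0. Those of 3 fibroblast genes stood at 146, 65.6, 274 and 70.9, nearly all of it COL1A1, and those of 2 endothelial genes at 45.3, 28.5, 45.6 and 33.6. The part of these markers in the results was not tested, and in bulk libraries a change in every cell and a change in the mix of cells cannot be told apart. Each library's values also followed the GC content of the transcripts to a different degree. Slopes were taken on each gene's log2 deviation from its own mean over the 12 libraries, so they are relative to that mean. Per 10 percentage points of GC, they were 0.14 ± 0.084 (SD, n = 3) in DMSO, -0.048 ± 0.11 in Met, -0.089 ± 0.14 in FK and -0.0027 ± 0.058 in Met+FK. GC made up 53.4% of the transcript in the median of the 32 genes and 48.5% in that of all genes tested. Numbers of calls without the GC trend are therefore given below, with values for only some of the genes that they concern.

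Promoter sequences are shown for HK2, LDHA and SLC16A3, since these genes and PFKFB2 were the only members called in all 4 comparisons of libraries with metformin against libraries without it. They are the 250 bases before a start site in RefSeq (GRCh38.p14, plus strand), the one nearest to the start of the Ensembl canonical transcript among the several listed for each gene, at chr2:74833877-74834126, chr11:18394313-18394562 and chr17:82228792-82229041. Capitals mark ACGTG or its reverse complement CACGT, found on either strand, and run on to CACGTG where the letters complete it.
HK2 promoter: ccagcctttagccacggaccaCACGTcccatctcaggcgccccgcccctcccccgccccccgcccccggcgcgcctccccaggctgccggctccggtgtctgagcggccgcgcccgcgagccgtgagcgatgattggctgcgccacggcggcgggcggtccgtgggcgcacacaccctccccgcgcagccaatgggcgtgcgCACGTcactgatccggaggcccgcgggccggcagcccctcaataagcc
LDHA promoter: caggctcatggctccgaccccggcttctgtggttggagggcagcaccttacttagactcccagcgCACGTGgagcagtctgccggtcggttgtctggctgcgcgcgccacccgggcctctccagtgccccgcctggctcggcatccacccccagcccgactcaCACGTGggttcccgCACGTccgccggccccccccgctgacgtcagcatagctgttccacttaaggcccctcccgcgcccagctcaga
SLC16A3 promoter: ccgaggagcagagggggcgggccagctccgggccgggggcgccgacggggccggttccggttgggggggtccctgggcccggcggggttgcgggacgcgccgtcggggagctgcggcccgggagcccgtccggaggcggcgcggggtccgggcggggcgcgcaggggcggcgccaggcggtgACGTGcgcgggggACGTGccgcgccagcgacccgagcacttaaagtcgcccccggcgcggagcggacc
HK2, whose counts rose with metformin, held 2 matches, as did SLC16A3, whose counts fell, and LDHA held 3, of which 2 lay within CACGTG. The other RefSeq windows of these genes differed, since that of HK2 held 2 CACGTG, that of LDHA 0 matches and the 4 others of SLC16A3 also 0. RefSeq start sites were at hand for 30 of the 32 genes (not PFKFB2 and SLC16A1). ACGTG stood in 21 of their 57 windows of 250 bases (36.8%) and in 18.5% of all 35116 windows, and CACGTG, which contains it, in 12.3% and 6.35%. Counted by gene, 18 of 30 members (60%) held ACGTG in some window and 21.7% of all 27305 genes did, although the members had more windows per gene, among them 6 of 8 genes that metformin lowered, the 1 that it raised and 11 of the 21 with no call. A match of letters is no binding site, and these shares were not tested.

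Together the 32 genes took 2.44% ± 0.082 (SD, n = 3) of all normalized counts in DMSO, 1.92% ± 0.098 in Met, 2.13% ± 0.19 in FK and 1.95% ± 0.12 in Met+FK. GAPDH alone took 1.10%, 0.898%, 0.949% and 0.930%. Set per kilobase of transcript, GAPDH was highest in DMSO with 307362 ± 19432 normalized counts per kb, followed by ENO1 (75567 ± 3838), TPI1 (59117 ± 3000), PKM (35975 ± 1837), LDHA (21505 ± 528) and LDHB (9989 ± 1042), each above the next by more than their spread. The lowest were ALDOC (29.5 ± 6.3), PFKFB4 (53.4 ± 5.8) and PFKFB2 (110.9 ± 4.9).

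Metformin lowered more of these genes than it raised. A gene was called where limma-trend gave an adjusted p under 0.05, with Benjamini-Hochberg adjustment over all 15376 genes, and the fold change was over 1.5. Against DMSO, 8 of 32 members were called lower in Met (10.2% of all genes tested were) and 2 were called higher (12.8% of all genes tested were). The genes that fell were SLC16A3, PGAM1, ALDOC, LDHA, PGK1, PFKM, ENO1 and TPI1, and those that rose were PFKFB2 and HK2. Without the fold threshold, 20 members were lower and 3 higher (25.9% and 24.9% of all genes), and the libraries of 20 and 4 members did not overlap (29.4% and 27.5%). The median log2 fold change was -0.33 over the members and 0.012 over all genes tested. Scaling all libraries to the same total moved the median of all genes to 0.13 and that of the members to -0.21, and left 3 members called lower and 2 higher. Several of the 8 lay close to the fold threshold, as the number called also fell to 4 without Met replicate 1 or without Met replicate 2 and to 5 without DMSO replicate 1 or after removal of the GC trend.

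**Figure D1:**
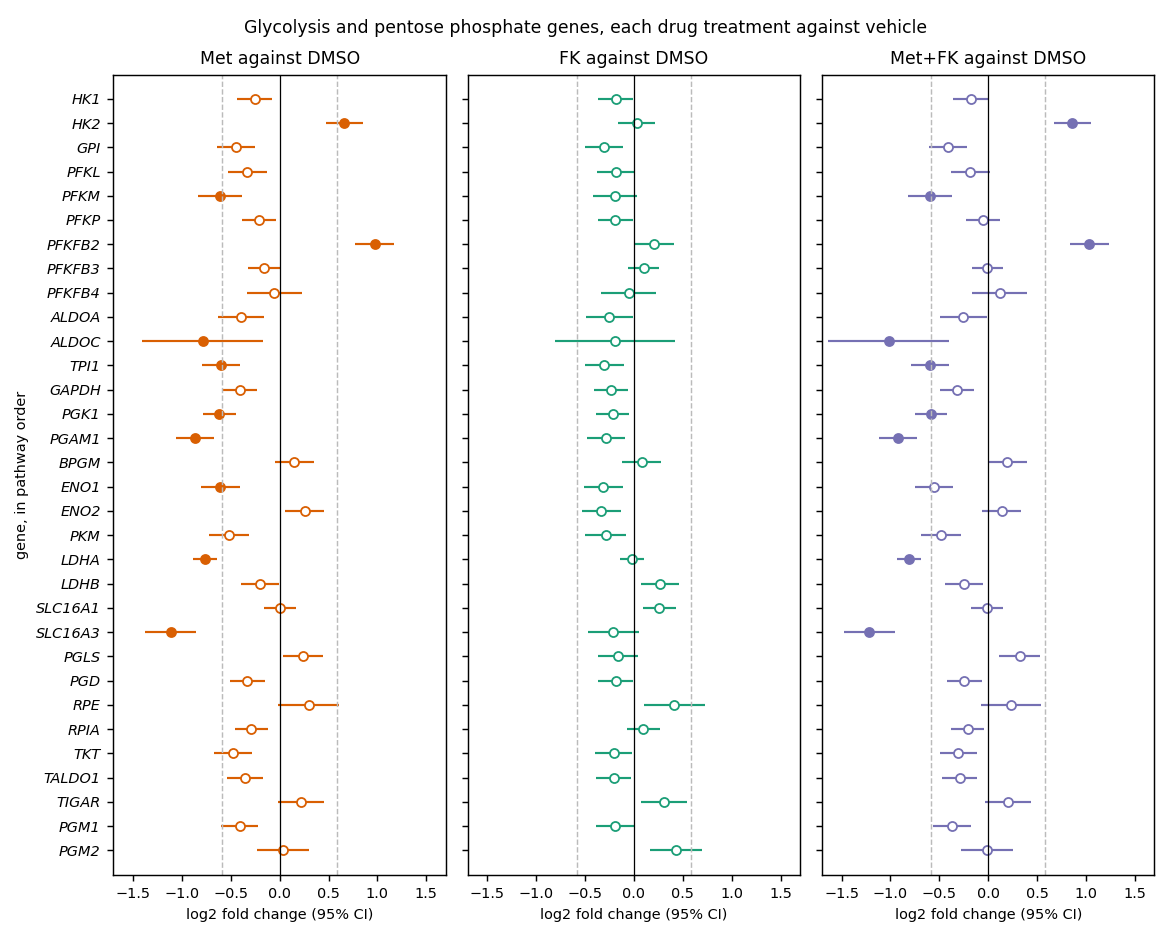
Log2 fold change with its 95% confidence interval (horizontal axis) for each of the 32 genes in pathway order (vertical axis), for Met, FK and Met+FK against DMSO. Filled points are genes called at an adjusted p under 0.05 and a fold over 1.5 (dashed lines); 10 genes are filled for Met, 0 for FK and 9 for Met+FK, with SLC16A3 lowest and PFKFB2 highest under metformin.

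The hexokinases, which trap glucose as glucose phosphate, moved apart. HK2 (ENSG00000159399, chr2:74833981-74893359, plus strand), the inducible form, held normalized counts of 2896, 2556 and 2933 in DMSO, 4901, 4143 and 4221 in Met, 2751, 2996 and 2808 in FK, and 5559, 5005 and 4682 in Met+FK. Every library with metformin lay above every library without it. HK2 rose in Met against DMSO by 0.66 (SE 0.089, adjusted p = 2.83e-05) on the log2 scale, or 1.58-fold, and in Met+FK against DMSO by 0.86 (SE 0.089, adjusted p = 1.81e-06). Without Met replicate 1 the first value was 0.58, just under the fold threshold. HK1, the widely expressed form, held normalized counts of 4540.0, 4173 and 4406 in DMSO, 3544, 3464 and 4017 in Met, 4082, 3524 and 3929 in FK, and 3689.9, 3698 and 4205 in Met+FK. Its change in Met against DMSO was -0.25 (SE 0.084, adjusted p = 0.0205), below the fold threshold, and in Met+FK against DMSO -0.18 (SE 0.084, adjusted p = 0.0849). HK2 thereby rose from 29.0% ± 0.86 of hexokinase counts per kb in DMSO to 43.5% ± 3.4 in Met and 45.7% ± 3.8 in Met+FK, with 32.3% ± 2.7 in FK. GPI, which turns glucose phosphate into fructose phosphate, had mean normalized counts of 21431 ± 1087 in DMSO, 15799 ± 1227 in Met, 17354 ± 1887 in FK and 16115 ± 1633 in Met+FK, and differed from DMSO in Met by -0.44 (SE 0.091, adjusted p = 0.00101), also below the fold threshold.

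Of the phosphofructokinase subunits, which form the enzyme of the committed step, only PFKM was called. PFKM (ENSG00000152556, chr12:48105139-48146404, plus strand), the muscle form, held normalized counts of 702, 725 and 758 in DMSO, 443, 461 and 532 in Met, 667, 628 and 614 in FK, and 416, 491 and 544 in Met+FK. The Met and Met+FK libraries lay below all others. It fell in Met against DMSO, with a log2 fold change of -0.61 (SE 0.11, adjusted p = 0.00028), and in Met+FK against DMSO, with -0.60 (SE 0.11, adjusted p = 0.000291). PFKL, the liver form, held normalized counts of 4803, 4702 and 4681 in DMSO, 3587, 3489 and 4238 in Met, 4422, 3858 and 4219.7 in FK, and 3838, 3987 and 4723 in Met+FK, with a difference of -0.33 (SE 0.093, adjusted p = 0.0079) in Met against DMSO. PFKP, the platelet form, held normalized counts of 6617, 6146 and 6168 in DMSO, 5319, 5129 and 5934 in Met, 6002, 5136 and 5490.4 in FK, and 5988, 5647 and 6618 in Met+FK, and differed by -0.21 (SE 0.083, adjusted p = 0.0459). PFKM was the scarcest subunit, at 5.53% ± 0.34 of phosphofructokinase counts per kb in DMSO and 4.39% ± 0.16 in Met, and PFKP the most abundant, at 56.3% ± 0.83 and 58.9% ± 0.74. The call of PFKM rested on a narrow margin: with TMM scaling or after removal of the GC trend the change in Met against DMSO was -0.58 or -0.57, under the fold threshold, and it was also lost without Met replicate 1, Met replicate 2 or DMSO replicate 3.

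The PFKFB enzymes make and break down the fructose bisphosphate that activates phosphofructokinase. PFKFB2 (ENSG00000123836, chr1:207034366-207081024, plus strand), known as the heart form and a target of AKT and AMPK, held normalized counts of 815, 747 and 791 in DMSO, 1698, 1529 and 1407 in Met, 916, 950.2 and 847 in FK, and 1738, 1647 and 1447 in Met+FK. Its counts in the 6 libraries with metformin lay well above those of the other 6. It rose in Met against DMSO by 0.97 (SE 0.094, adjusted p = 1.27e-06), or 1.96-fold, the largest rise among the members, and in Met+FK against DMSO by 1.03 (SE 0.094, adjusted p = 5.23e-07). PFKFB3, the form with the highest ratio of kinase to phosphatase activity, held normalized counts of 2298, 2092 and 2343 in DMSO, 1939.8, 1913 and 2172 in Met, 2361, 2390.4 and 2459.9 in FK, and 2243, 2286 and 2162 in Met+FK. Met and DMSO overlapped, with a change of -0.16 (SE 0.075, adjusted p = 0.0866). PFKFB4 held normalized counts of 208, 167 and 185 in DMSO, 153, 180.5 and 208 in Met, 175, 174 and 189 in FK, and 184, 205 and 219 in Met+FK, and all 4 treatments overlapped. PFKFB2 made up 16.7% ± 0.39 of PFKFB counts per kb in DMSO, 30.5% ± 3.4 in Met, 17.9% ± 1.2 in FK and 29.0% ± 1.7 in Met+FK, while PFKFB3 stayed the most abundant of the family at 62.4% or more in each treatment. About 4.88% of the exonic bases of PFKFB4 are shared with UCN2 on the same strand, which had a mean of 2.64 normalized counts.

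Aldolase values were uncertain in both isoenzymes. ALDOC (ENSG00000109107, chr17:28573115-28576948, minus strand), the brain form, was near the detection limit. It held normalized counts of 57.7, 37.4 and 47.1 in DMSO, 25.1, 18.9 and 39.6 in Met, 42.5, 30.1 and 52.8 in FK, and 25.1, 17.3 and 26.3 in Met+FK. Met and DMSO overlapped. ALDOC was called lower in Met against DMSO, with a log2 fold change of -0.79 (SE 0.29, adjusted p = 0.0332), and in Met+FK against DMSO, with -1.02 (SE 0.29, adjusted p = 0.00831), but the first call held in only 2 of 6 fits that each left out 1 library (Met replicate 3 or DMSO replicate 2). ALDOA, the main form in most tissues, held normalized counts of 971, 962 and 897 in DMSO, 743, 645 and 766 in Met, 920.3, 685 and 787 in FK, and 721, 797 and 859 in Met+FK. Of its exonic bases, 42.8% lie within the readthrough gene AC093512.2 on the same strand (mean 47.1 normalized counts), so reads may have been lost or divided between them, and its rank of 19 by counts per kb in DMSO, far below TPI1, cannot be compared with the other enzymes. Its change in Met against DMSO was -0.40 (SE 0.11, adjusted p = 0.00809).

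Among the 8 genes from TPI1 to PKM, 4 were called lower in Met, and GAPDH and PKM were lower at less than 1.5-fold. The abundant members of this group, and LDHA after them, have many processed pseudogenes, whose reads the counting could have split from the parent gene. TPI1 (ENSG00000111669, chr12:6867119-6870948, plus strand), which interconverts the triose phosphates, held normalized counts of 83618, 80416 and 75567 in DMSO, 50784, 50735 and 56546 in Met, 74242, 56551 and 64482 in FK, and 51396, 49349 and 58235 in Met+FK. The Met libraries lay below those of DMSO, and its log2 fold change was -0.60 (SE 0.092, adjusted p = 9.56e-05). PGK1 (ENSG00000102144, chrX:77910739-78129295, plus strand), which forms ATP, held normalized counts of 24465, 23822 and 23042 in DMSO, 15309.7, 14865 and 16390.2 in Met, 22679, 18466 and 20364 in FK, and 15688, 14999 and 16868 in Met+FK. It fell in Met, with a log2 fold change of -0.62 (SE 0.077, adjusted p = 1.62e-05) and with no overlap with DMSO or FK. PGAM1 (ENSG00000171314, chr10:97426191-97433444, plus strand), phosphoglycerate mutase, held normalized counts of 12913, 12453 and 11462 in DMSO, 6512, 6491 and 7187 in Met, 11334, 8908 and 10068 in FK, and 6512, 5959 and 6976 in Met+FK. All libraries with metformin lay below all others, the highest at 7187 against a lowest of 8908. Against DMSO, PGAM1 fell in Met, with a log2 fold change of -0.87 (SE 0.09, adjusted p = 2.76e-06), and in Met+FK, with -0.92 (SE 0.09, adjusted p = 1.12e-06), a 1.82-fold and a 1.90-fold decrease. ENO1 (ENSG00000074800, chr1:8861000-8879190, minus strand), the main enolase, held normalized counts of 141852, 133616 and 128285 in DMSO, 84286, 84429 and 96925 in Met, 123125, 95549 and 107634 in FK, and 87243, 86386 and 101868 in Met+FK, and fell in Met, with a log2 fold change of -0.61 (SE 0.093, adjusted p = 9.57e-05). In Met+FK its change against DMSO was -0.55 (SE 0.093, adjusted p = 0.000177), short of the fold threshold.

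ENO2, the neuronal enolase, went the other way. It held normalized counts of 1259, 1149 and 1122 in DMSO, 1409, 1309 and 1501 in Met, 1011, 822 and 978 in FK, and 1234, 1278 and 1368 in Met+FK. The FK libraries lay below all others, and the Met libraries lay above those of DMSO and overlapped with Met+FK. ENO2 was called higher in Met against FK, by 0.59 (SE 0.094, adjusted p = 0.000197), and differed from DMSO by 0.26 (SE 0.094, adjusted p = 0.0331) in Met and by -0.33 (SE 0.094, adjusted p = 0.0307) in FK, both below the fold threshold. The value of ENO2 in Met against FK lay just over that threshold. It rose from 0.674% ± 0.011 of enolase counts per kb in DMSO to 1.22% ± 0.054 in Met, and remained a small part of enolase transcripts. GAPDH, the NAD-dependent step, had mean normalized counts of 394960 ± 24970.1 in DMSO, 297450 ± 17038 in Met, 336776 ± 35316 in FK and 316610 ± 21543 in Met+FK. Its change in Met against DMSO was -0.41 (SE 0.081, adjusted p = 0.000723), and 17.6% of its exonic bases face a gene on the opposite strand. PKM, which encodes both the muscle and the tumour-associated pyruvate kinase, had mean normalized counts of 82921 ± 4235 in DMSO, 58057 ± 5715 in Met, 68023 ± 7603 in FK and 59381 ± 6562 in Met+FK, and changed by -0.52 (SE 0.096, adjusted p = 0.000448). Splice forms of PKM cannot be told apart in gene counts. BPGM, which makes the bisphosphoglycerate of red cells, had mean normalized counts of 876 ± 76.1 in DMSO, 972 ± 79.0 in Met, 926 ± 48.0 in FK and 1003 ± 74.2 in Met+FK and changed by 0.15 (SE 0.094, adjusted p = 0.195).

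The calls of TPI1, PGK1 and ENO1 were sensitive to scaling, since their log2 fold changes in Met against DMSO lay between -0.62 and -0.60. With TMM scaling they were -0.57, -0.58 and -0.57, and scaled to the same total -0.48, -0.49 and -0.48, all under the fold threshold. PGAM1 kept its call in every alternative for Met against DMSO. TPI1 and ENO1 also lost the fold threshold without DMSO replicate 1, Met replicate 1 or Met replicate 2, and PGK1 lost it in no fit that left out 1 library. Without the GC trend 5 members in place of 8 were called lower in Met against DMSO, and PFKM was not among the 5.

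The last steps, which regenerate NAD+ and export lactate, held the deepest decrease, that of SLC16A3. LDHA (ENSG00000134333, chr11:18394560-18408425, plus strand), the subunit that favours the reduction of pyruvate, held normalized counts of 49020.5, 48722 and 46838 in DMSO, 28323, 28152 and 28483 in Met, 50490.2, 46214 and 46243 in FK, and 27322, 26978 and 28165 in Met+FK. The Met and Met+FK libraries lay within 26978 and 28483, far below the other 6, whose lowest was 46214. Its log2 fold change was -0.77 (SE 0.057, adjusted p = 1.26e-07) in Met against DMSO, -0.81 (SE 0.057, adjusted p = 4.77e-08) in Met+FK against DMSO and -0.79 (SE 0.057, adjusted p = 8.18e-08) in Met+FK against FK. LDHB, the subunit that favours the oxidation of lactate, held normalized counts of 12557, 14542 and 11947 in DMSO, 11751, 11794 and 10282 in Met, 15703, 17304 and 14069 in FK, and 10924, 11381 and 10439 in Met+FK. Its difference between Met and DMSO was -0.20 (SE 0.091, adjusted p = 0.0726), not under 0.05, and between FK and DMSO 0.27 (SE 0.091, adjusted p = 0.0482). LDHB went from 31.7% ± 2.0 of lactate dehydrogenase counts per kb in DMSO to 40.6% ± 2.0 in Met, 36.1% ± 2.7 in FK and 40.6% ± 1.6 in Met+FK.

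SLC16A3 (ENSG00000141526, chr17:82228397-82261129, plus strand) encodes MCT4, the lactate exporter of glycolytic cells. It held normalized counts of 1467, 1390.2 and 1573 in DMSO, 643, 619 and 791 in Met, 1259, 1201 and 1367 in FK, and 521, 675 and 722 in Met+FK. No library with metformin reached the lowest without it. SLC16A3 fell 2.17-fold in Met against DMSO, a log2 fold change of -1.12 (SE 0.12, adjusted p = 4.70e-06), and 2.33-fold in Met+FK against DMSO, a log2 fold change of -1.22 (SE 0.12, adjusted p = 1.45e-06), the largest decreases among the members. SLC16A1, which encodes MCT1, a carrier for uptake and export, held normalized counts of 5522, 6350.0 and 6254 in DMSO, 6278, 6315 and 5549.6 in Met, 6941, 7757 and 7006 in FK, and 5969.6, 6105 and 5874 in Met+FK. Met and DMSO overlapped, with a change of 0.0016 (SE 0.077, adjusted p = 0.988) (95% interval -0.16 to 0.17), and FK differed from DMSO by 0.26 (SE 0.077, adjusted p = 0.0347). The share of SLC16A3 in the counts per kb of both carriers went from 26.1% ± 1.9 in DMSO to 14.1% ± 2.6 in Met, 20.3% ± 1.9 in FK and 13.3% ± 2.0 in Met+FK. PFKFB2, LDHA and SLC16A3 kept their calls under every alternative for Met against DMSO and for Met+FK against DMSO.

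**Figure D2:**
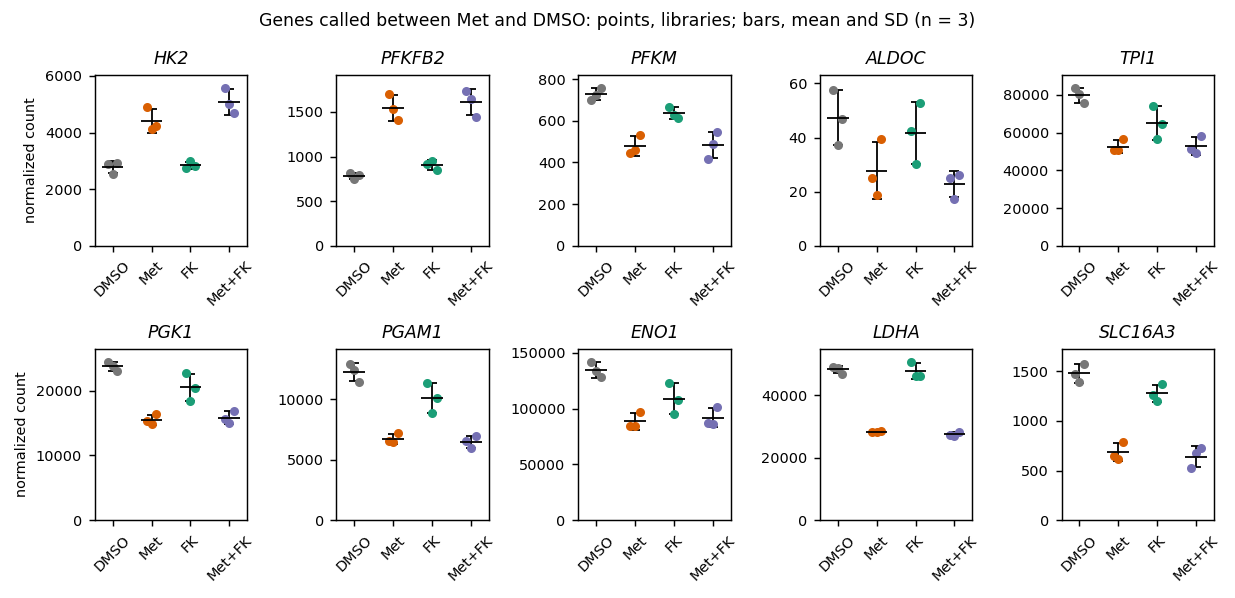
Normalized counts (vertical axis, from 0) of the 10 genes called between Met and DMSO, by treatment (horizontal axis), with points for libraries and bars for the mean and SD of 3. HK2 and PFKFB2 lie higher and PGAM1, LDHA and SLC16A3 lower in all 6 libraries with metformin than in all 6 without, while ALDOC overlaps between Met and DMSO.

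No pentose phosphate gene, TIGAR or phosphoglucomutase was called in any comparison. In the oxidative branch, PGD, phosphogluconate dehydrogenase and a source of NADPH, had mean normalized counts of 6999 ± 266 in DMSO, 5561 ± 381 in Met, 6166 ± 648 in FK and 5906 ± 366 in Met+FK, and changed in Met against DMSO by -0.33 (SE 0.084, adjusted p = 0.0042). PGLS, the lactonase before it, had mean normalized counts of 1243 ± 73.8 in DMSO, 1466 ± 73.9 in Met, 1115 ± 121 in FK and 1557 ± 149.7 in Met+FK, with 0.24 (SE 0.097, adjusted p = 0.0533) in Met and 0.32 (SE 0.097, adjusted p = 0.0121) in Met+FK against DMSO. In the branch that exchanges sugars with glycolysis, TKT (transketolase) had mean normalized counts of 11196 ± 645 in DMSO, 8049 ± 627 in Met, 9725 ± 1034 in FK and 9068 ± 713 in Met+FK and differed by -0.48 (SE 0.089, adjusted p = 0.000474) in Met against DMSO. TALDO1 (transaldolase) had mean normalized counts of 6348 ± 327 in DMSO, 4972 ± 377 in Met, 5504 ± 475 in FK and 5188 ± 394 in Met+FK and differed by -0.35 (SE 0.085, adjusted p = 0.00292), and RPIA, the ribose phosphate isomerase, had mean normalized counts of 862 ± 32.9 in DMSO, 705 ± 35.7 in Met, 921 ± 46.2 in FK and 746 ± 13.3 in Met+FK and differed by -0.29 (SE 0.079, adjusted p = 0.0066). RPE, the ribulose phosphate epimerase, had mean normalized counts of 1579 ± 272 in DMSO, 1936 ± 296 in Met, 2114 ± 447 in FK and 1839 ± 47.1 in Met+FK and changed by 0.30 (SE 0.15, adjusted p = 0.104), with 23.8% of its exonic bases facing a gene on the opposite strand. TKT, TALDO1, RPIA and PGD were therefore lower in Met at less than 1.5-fold, and PGLS and RPE did not pass the adjusted p.

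TIGAR, a phosphatase that lowers the activator of phosphofructokinase, had mean normalized counts of 1923 ± 215 in DMSO, 2244 ± 243 in Met, 2387 ± 304 in FK and 2203 ± 170.1 in Met+FK, with 0.22 (SE 0.11, adjusted p = 0.106) in Met and 0.31 (SE 0.11, adjusted p = 0.0561) in FK against DMSO. PGM1, which links glycogen to glucose phosphate, had mean normalized counts of 3734 ± 81.4 in DMSO, 2815 ± 230.5 in Met, 3267 ± 225 in FK and 2901 ± 337 in Met+FK and differed by -0.41 (SE 0.09, adjusted p = 0.00159) in Met against DMSO. PGM2, which acts on ribose phosphate, had mean normalized counts of 1314 ± 195 in DMSO, 1343 ± 190.0 in Met, 1766 ± 216 in FK and 1299 ± 109 in Met+FK, with 0.032 (SE 0.12, adjusted p = 0.846) in Met and 0.43 (SE 0.12, adjusted p = 0.0329) in FK.

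Removal of the GC and length trend changed which members passed the limma-trend adjusted p at any fold, from 23 to 26 in Met against DMSO. SLC16A1 (-0.25, adjusted p = 0.0011), PGM2 (-0.22, adjusted p = 0.00844) and LDHB (-0.26, adjusted p = 0.00215) were then lower and PGLS higher (0.43, adjusted p = 1.26e-05), while PFKP no longer passed (-0.063, adjusted p = 0.28). SLC16A1 and PGM2 had been near 0 before. In Met+FK against DMSO the number went from 20 to 23, with ENO2 (0.24) higher and SLC16A1 (-0.21) and PGM2 (-0.21) lower, from 16 to 22 in Met+FK against FK and from 17 to 25 in Met against FK. None of the added genes passed the fold threshold in Met or Met+FK against DMSO. How many of all genes passed the adjusted p at any fold after this removal was not computed. These gains can therefore not be called particular to the members.

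Whether isoenzymes of a step responded unequally was tested on the log2 ratio of their counts within each library, for 10 pairs and both drugs (20 tests, exact two-sided permutation test over 400 permutations within strata, smallest p possible 0.005). Metformin shifted 7 pairs at an adjusted p under 0.05. Each shift given is the mean of that without and that with the other drug. The shift of PFKFB3 over PFKFB2 was -1.04, that of SLC16A3 over SLC16A1 -0.93, HK2 over HK1 0.87, ENO2 over ENO1 0.79, PFKM over PFKL -0.34 and PFKP over PFKL 0.13 on the log2 scale, each with an exact p of 0.005 and an adjusted p of 0.0167. That of LDHB over LDHA was 0.42 (exact p = 0.01, adjusted p = 0.0286), with 0.56 without FK866 and 0.27, with overlap of the libraries, in its presence. ALDOC over ALDOA (-0.61, exact p = 0.02, adjusted p = 0.05), PFKFB4 over PFKFB3 (0.19, exact p = 0.035, adjusted p = 0.0778) and PGM2 over PGM1 (0.089, exact p = 0.63, adjusted p = 0.7) did not pass. The last is a mean of opposite shifts, 0.44 without FK866 and -0.26 with it, both with overlap of the libraries. For the hexokinases and the PFKFB pair the scarcer form rose, and for lactate dehydrogenase and the carriers LDHA and SLC16A3 fell. For the enolases the abundant ENO1 fell while ENO2 was slightly higher, and the 3 phosphofructokinase subunits were all lower in Met, by unequal amounts. For FK866 no pair passed by this exact permutation test, and at an unadjusted p under 0.05 there were also 0 (ENO2 over ENO1 came closest, -0.095, exact p = 0.05, adjusted p = 0.1). Without metformin, FK and DMSO did not overlap for PGM2 over PGM1 (0.62), SLC16A3 over SLC16A1 (-0.47) and LDHB over LDHA (0.29). Nor did they for HK2 over HK1 (0.22) and PFKFB4 over PFKFB3 (-0.15). With metformin these shifts were -0.082, -0.090, -0.0018, 0.13 and 0.021, all with overlap. PFKM over PFKL (-0.14) and ENO2 over ENO1 (-0.17) did not overlap there. The strata were not tested apart. After removal of the GC and length trend the same exact permutation test passed 4 more pairs. These were PFKM over PFKL (-0.13, adjusted p = 0.04) and ENO2 over ENO1 (-0.11, adjusted p = 0.0375) for FK866, and PFKFB4 over PFKFB3 (0.21, adjusted p = 0.04) and ALDOC over ALDOA (-0.59, adjusted p = 0.0455) for metformin.

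**Figure D3:**
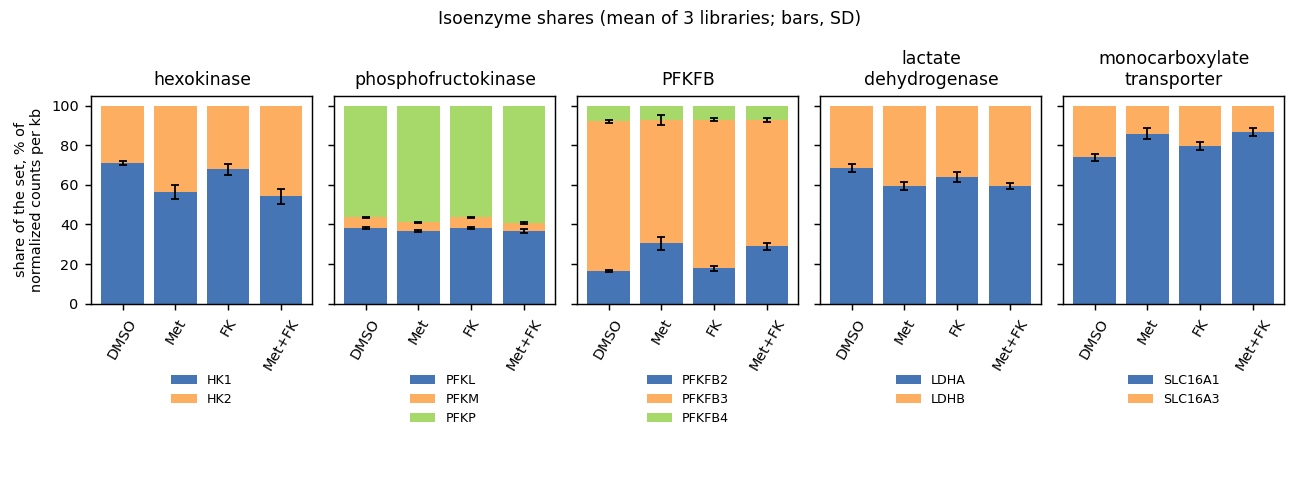
Share of each isoenzyme in the normalized counts per kilobase of its set (vertical axis, percent), by treatment (horizontal axis), as the mean of 3 libraries with SD at the borders. HK2 rises from 29.0% in DMSO to 43.5% in Met, PFKFB2 from 16.7% to 30.5% and LDHB from 31.7% to 40.6%, while SLC16A3 falls from 26.1% to 14.1%.

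FK866 alone took no member past the fold threshold. In FK against DMSO limma-trend called 0 of 32 members in either direction (2.73% of all genes tested were called higher and 0.754% lower), as did edgeR and DESeq2 on the recovered read pairs. An unadjusted limma-trend p under 0.05 was found for 21 members and for 6488 of all 15376 genes. Without the fold threshold, 6 members were lower (GPI, TPI1, PGAM1, ENO1, ENO2 and PKM, between -0.33 and -0.29) and 3 higher (LDHB, SLC16A1 and PGM2, between 0.26 and 0.43), against 9.84% and 11.3% of all genes tested. The libraries of 16 members lay wholly below DMSO and those of 4 wholly above (21.6% and 17.2% of all genes). LDHA differed by -0.017 (SE 0.057, adjusted p = 0.837) (95% interval -0.14 to 0.10) and SLC16A3 by -0.21 (SE 0.12, adjusted p = 0.199).

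The count of 9 was not stable. The replicate numbers pair DMSO with FK by the correlation of their deviations, and with that number in the fit as a block 22 members had an adjusted p under 0.05, 16 lower and 6 higher (21.3% and 23.3% of all genes). With the block set separately in DMSO with FK and in Met with Met+FK there were 24, 18 lower and 6 higher (24.7% and 25.8%). Without a block the count was 17 without FK replicate 1, 3 without FK replicate 3, 0 without FK replicate 2, DMSO replicate 1 or DMSO replicate 3, and 0 in a fit of the 6 libraries compared. The change of a member also followed its GC content. Over the 32 genes, which share the same 6 libraries, Pearson's r between the change in FK and GC content was -0.73 (Spearman's rho -0.53), and after removal of each library's GC and length trend it was 0.083 (0.087). The trend removed is fitted on GC content itself, so a value near 0 after its removal was built in. The 3 genes higher in FK had GC contents of 43.7%, 40.3% and 39.2%. After that removal the median change was -0.033 in place of -0.19, and 3 members had an adjusted p under 0.05 (GPI and PGK1 lower, PFKFB3 higher), or 6 and 7 with these blocks as well. The share of all genes at any fold was not computed for these fits. The part of GC content in the changes with FK866 was not tested further.

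**Figure D4:**
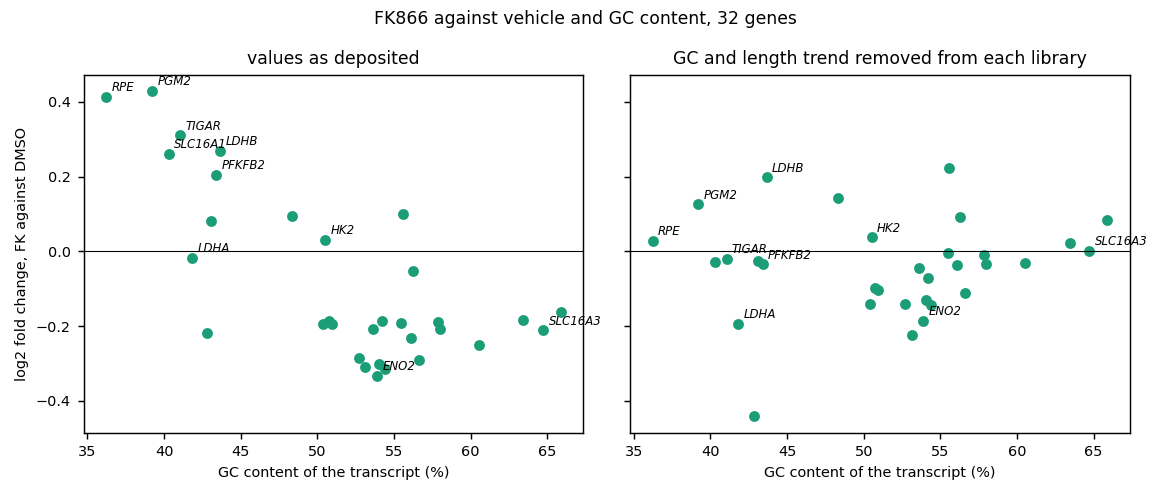
Log2 fold change of FK against DMSO (vertical axis) against the GC content of the transcript in percent (horizontal axis) for the 32 genes, as deposited (left) and after removal of each library's GC and length trend (right). The AT-rich genes RPE, PGM2, TIGAR, SLC16A1 and LDHB lie above 0 on the left. Pearson's r goes from -0.73 to 0.083, where a value near 0 on the right is built in by the removal.

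With both drugs, 9 of 32 members were called against the vehicle. In Met+FK against DMSO 7 members were called lower (11.3% of all genes tested) and 2 higher (13.7%), namely PFKM, ALDOC, TPI1, PGK1, PGAM1, LDHA and SLC16A3, and HK2 and PFKFB2. The libraries of 18 and 3 members did not overlap (30.4% and 30.5% of all genes). PFKM, TPI1 and PGK1, at -0.60, -0.59 and -0.59, were under the fold threshold with TMM scaling. Scaled to the same total, 4 were lower and 2 higher. Without Met+FK replicate 1 the number lower was also 4, and without the GC trend it was 5. In Met+FK against FK 4 members were called lower (9.29%) and 2 higher (9.27%), with LDHA at -0.79, SLC16A3 at -1.01, PGAM1 at -0.64, ALDOC at -0.83, HK2 at 0.83 and PFKFB2 at 0.83 on the log2 scale. Without FK replicate 1 or without Met+FK replicate 2, 2 were lower. With all libraries, 11 members lay wholly lower and 4 wholly higher (26% and 24.9% of all genes). Met against FK gave 2 members lower (7.03%), LDHA and SLC16A3, and 3 higher (8.08%), HK2, PFKFB2 and ENO2, and 11 lay wholly lower and 4 wholly higher (22.7% and 21.2%). Without Met replicate 3, without FK replicate 2 or without the GC trend, 4 were lower. The number higher was 2 with a pseudocount of 10, without the GC trend, or without Met replicate 1, Met replicate 3 or FK replicate 2. These comparisons and that of Met with DMSO share libraries, so their counts are not independent of each other.

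Adding FK866 to metformin gave 0 called members by limma-trend, edgeR and DESeq2 (0.052% of all genes tested were called higher and 0.0065% lower). At an unadjusted p under 0.05 there was 1, HK2 (0.20, SE 0.089, adjusted p = 0.702), and 1051 of all 15376 genes. The log2 fold changes of the members lay between -0.23 and 0.20. The libraries of RPIA alone did not overlap (7.88% of all genes lay wholly higher and 5.56% wholly lower). With a block for the number, which pairs Met with Met+FK, the count remained 0, and HK2 alone passed the adjusted p at any fold once the block was set within the paired treatments and the GC trend removed.

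The effect of metformin without FK866 (Met against DMSO) and with it (Met+FK against FK) can be compared in libraries that the 2 comparisons do not share. Pearson's r over the 32 genes was 0.825 (Spearman's rho 0.663), and 24 of 32 had the same sign. The members' median was -0.33 without FK866 and -0.11 with it, and 22 of 32 had an interaction above 0 (median 0.23, against 0.016 for all genes tested). After removal of the GC and length trend these medians lay closer together, at -0.25 without FK866 and -0.16 with it. The median interaction was then 0.10 over the members and 0.037 over all genes tested. For FK866 without metformin (FK against DMSO) and with it (Met+FK against Met) r was -0.105 (rho 0.0341), and 10 of 32 had the same sign. Whether FK866 acted differently in the presence of metformin was tested as the difference between its effects (the interaction), and limma-trend called 0 members at an adjusted p under 0.05 (0.0065% of all genes tested were called higher and 0.052% lower). The members called by edgeR and DESeq2 were also 0. Over all 15376 genes edgeR called 1 higher and 9 lower, and DESeq2 263 higher and 432 lower. At an unadjusted limma-trend p under 0.05 there were 17 members, with TKT lowest in p (0.38, SE 0.13, adjusted p = 0.112), and 4695 of all 15376 genes. Without FK replicate 1, 8 members had an adjusted p under 0.05, all higher. Over all 15376 genes, 980 were then higher and 865 lower. These counts ignore the replicate numbers. With the number as a block 17 members passed, 12 higher and 5 lower (15.5% and 16.5% of all genes). With the block set separately in DMSO with FK and in Met with Met+FK, the treatments that the numbers pair, 20 passed, 15 higher and 5 lower (21% and 20.5%). After removal of the GC trend as well 3 did (GPI and PGK1 higher, LDHB lower), with 1257 higher and 595 lower over all 15376 genes. The number of members with an interaction therefore depended on the treatment of replicate numbers and of the GC trend.

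**Figure D5:**
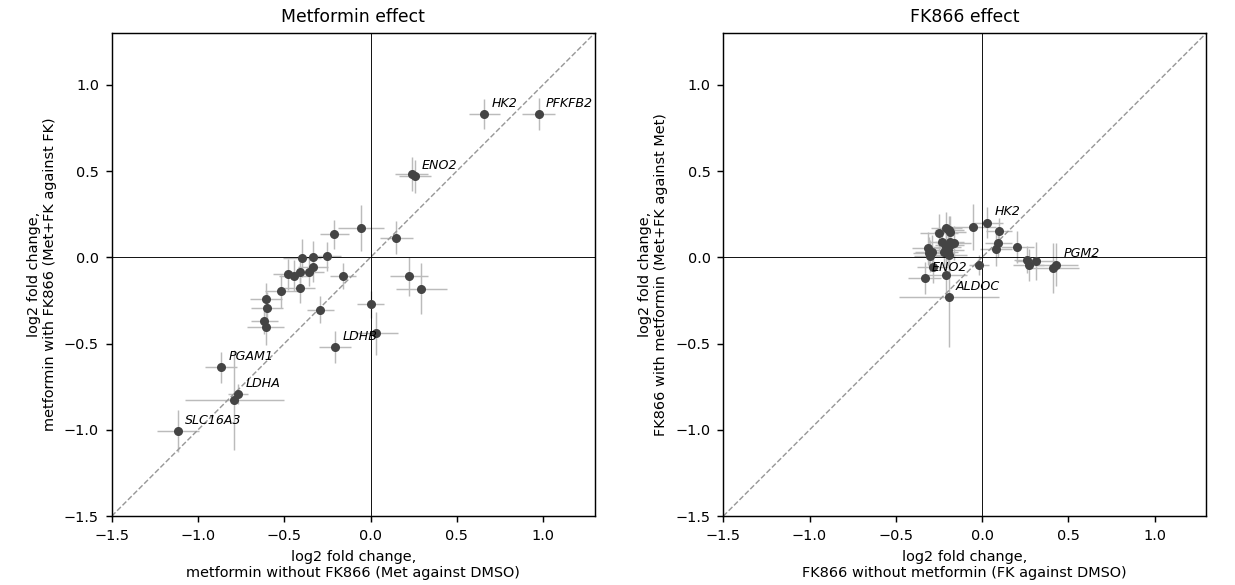
Log2 fold changes with standard errors for the 32 genes: the effect of metformin with FK866 (vertical axis) against that without (horizontal axis) on the left, and the effect of FK866 with metformin against that without on the right. On the left the genes run from SLC16A3 to PFKFB2 along the dashed line of equal effects (r 0.825), with 22 of 32 above it, and on the right they gather around 0 on the vertical axis (r -0.105).

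Of 40 further genes of these pathways and their flanks, 23 had a mean of at least 10. In Met against DMSO, 2 of 23 were called higher and 5 lower (12.8% and 10.2% of all genes). HKDC1, a hexokinase-related gene, rose by 2.48 (SE 0.28, adjusted p = 6.81e-06) from 15.5 ± 8.7 to 83.7 ± 10.8 normalized counts, and H6PD, which produces NADPH in the endoplasmic reticulum, by 0.63 (SE 0.1, adjusted p = 0.000158). SHPK, a sedoheptulose kinase, fell (-0.97, SE 0.13, adjusted p = 2.14e-05), as did PRPS1, which turns ribose phosphate into the nucleotide precursor PRPP (-0.83, SE 0.076, adjusted p = 7.44e-07), PGP, a phosphatase of glycolytic side products (-0.83, SE 0.11, adjusted p = 3.64e-05), PDK2, a pyruvate dehydrogenase kinase (-0.61, SE 0.13, adjusted p = 0.00119), and PFKFB1 at 13.1 ± 4.4 to 6.66 ± 0.42 counts (-0.82, SE 0.31, adjusted p = 0.0373). In Met+FK against DMSO, 3 were called higher (HKDC1, H6PD and PDK1) and 3 lower (SHPK, PRPS1 and PGP), against 13.7% and 11.3% of all genes. In FK against DMSO 1 was called higher (2.73% of all genes), PGM2L1, which rose by 0.61 (SE 0.14, adjusted p = 0.019). In Met+FK against FK 2 were called higher (HKDC1 and H6PD) and 5 lower (SHPK, PRPS1, PRPS2, PGM2L1 and PDK3), against 9.27% and 9.29% of all genes. There were in Met against FK 3 higher (HKDC1, H6PD and RBKS) and 5 lower (again SHPK, PRPS1, PRPS2, PGM2L1 and PDK3), against 8.08% and 7.03%, and between Met+FK and Met 0 by limma-trend. Between Met+FK and Met, 2 of 23 had an unadjusted limma-trend p under 0.05, as did 1051 of all 15376 genes.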

How the data were processed

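RNA of KP4 cells was sequenced in 12 libraries, 3 per treatment. According to the study's methods and the submitters' processing notes, the authors used cutadapt for trimming, STAR for alignment to hg38, featureCounts for read pairs per gene and DESeq2 for normalization. Which annotation was counted, and whether by strand, is not given in the sources used here. The deposited values are a signal, a gene count over the DESeq2 size factor of its library, and 100% of them gave whole read pairs within 0.01. Their depth was 30667735 to 41052203 read pairs per library, and the replicates carry the error, so counting intervals were not computed. No library was a copy of another (chi-square between replicates 5.75 to 51.9 per degree of freedom). Positions are those of the deposited table, with 1 added to its starts; of 36366 genes found in GENCODE 44, 83.6% then have the same start and end.

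Groups were compared with limma-trend (limma 3.58.1, R 4.3.3) on log2(normalized count + 1) of 15376 genes with a mean of at least 10, with 1 mean per treatment over all 12 libraries and Benjamini-Hochberg adjustment. In simulated counts of 15376 genes it called 161 of 200 genes changed 2-fold (80.5%), with 2 false calls. These counts were drawn independently for each gene, without GC trends or deviations shared by libraries of the same number. Only those 200 genes changed, so the rates need not hold for the real libraries. Counts per kb used the Ensembl canonical transcript. Every member is named; values in every library are given for members called in some comparison and their isoenzyme partners. The members and lists were chosen with earlier results of these data known. Alternatives were pseudocounts, filters, scalings, the replicate number as a block, removal of a loess trend on GC content and length, edgeR 4.0.16 and DESeq2 1.42.0 on the recovered read pairs, and each library left out. The deviations from the group mean, seen in the values alone, of libraries with the same number correlated at 0.25, 0.42 and 0.22 for DMSO and FK and at 0.17, 0.20 and 0.23 for Met and Met+FK, all over 0.1, so these were read as paired. For other treatments some correlations were lower. Without the GC trend, DMSO and FK stayed over 0.1 (0.14, 0.17 and 0.13), Met and Met+FK fell partly under it (0.16, 0.096 and 0.071) and Met and FK were over it (0.12, 0.14 and 0.12), so the pairing depended on the values used.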

Additional observations from a re-analysis of the deposited data

How the results depend on the processing

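No called value changed sign under any alternative, while 212 values of 58 results that were not called did, 4 of them with an adjusted p under 0.05 (SLC16A1 and PGM2, Met against DMSO, without the GC trend, with and without the block). For Met against DMSO, the 8 members called lower became 3 with libraries scaled to the same total, 4 with TMM scaling, 4 with edgeR, 5 without the GC trend (with or without the replicate block) and 20 by the adjusted p alone. For Met+FK against DMSO, 7 became 4 with the same total, with TMM scaling and with edgeR, and 17 by the adjusted p alone. For Met+FK against FK, the adjusted p alone gave 4 higher and 12 lower in place of 2 and 4. For Met against FK, 2 lower became 4 without the GC trend, with or without the block, and 13 by the adjusted p alone. For FK against DMSO, the adjusted p alone gave 3 higher and 6 lower in place of 0. Recomputed after the data were seen, these 9 became 3 without the GC trend, 2 with all genes above 0, 5 with edgeR, 0 with only the 6 libraries, 22 with the replicate block and 24 with the block set within the paired treatments. Leaving out 1 library gave 1 to 2 higher and 4 to 9 lower for Met against DMSO, 0 for FK against DMSO (0 to 17 by the adjusted p alone), 2 higher and 4 to 8 lower for Met+FK against DMSO, 2 higher and 2 to 4 lower for Met+FK against FK, 0 for Met+FK against Met, 2 to 3 higher and 2 to 4 lower for Met against FK, and 0 to 8 for the interaction. The cause of these differences was not tested, except that many members lay near the fold threshold.

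The replicate block gave 17 members with an interaction (12 higher, 5 lower) and, over all genes tested, 2380 higher and 2534 lower in place of 1 and 8. Once the GC trend was also removed, it gave 1 member (PGK1), and 735 higher and 332 lower over all genes. Set within the paired treatments, which was added after seeing the data, it gave 20 members, and 3 without the GC trend. Replicate 1 of DMSO correlated best with replicate 3 of Met, so the numbers do not pair all 4 treatments. In the exact permutation test of isoenzyme ratios, blocking left 64 permutations, and the 7 pairs had an adjusted p of 0.0694. With so few permutations, a pair at the smallest p possible passes only if most of the 20 tests reach that p. The loss of these calls is therefore no sign of weaker shifts. The block moved no other count of members past the fold threshold by over 1.5 times. Over all genes, FK against DMSO had 420 higher and 116 lower, 89 and 23 with only the 6 libraries, and 165 and 36 without the GC trend; scaled to the same total, Met against DMSO had 2835 higher and 1025 lower in place of 1964 and 1566, Met+FK against DMSO 2630 and 1396 in place of 2110 and 1745, and Met against FK 1637 and 805 in place of 1243 and 1081. Among values of single members, 4389 kept their side of the threshold, 117 gained it and 70 lost it. Among isoenzyme ratios 305 kept it, 8 gained it and 7 lost it, all 7 with the block and its 64 permutations.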
